A study of Saccharomyces cerevisiae with 24 samples.

Results

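Cells lacking RPL12A, 1 of the 2 genes for ribosomal protein L12 in budding yeast, were compared with wild-type cells on 4 microarrays, 2 of each strain, out of 24 arrays in the series. The members are all 9275 non-control probe sets of the 9335 on the array, where a probe set is a group of short DNA probes that together report 1 RNA. The rpl12a strain carries a deletion of RPL12A. Its reference, wild type, is BY4741, a haploid of mating type a that lacks working HIS3, LEU2, MET17 and URA3 genes, and the series' design text calls the 2 isogenic. Used for comparison were rpl12b, which lacks the other copy, and the rest of the 10 other single deletions (rpl7a, rpl7b, rpl14a, rpl22a, rpl22b, rps0a, rps0b, rps18a and rps18b), with 2 arrays each. All strains grew in 50 mL cultures of YPD, a rich medium, at 30 °C and were harvested in early log phase. Each replicate was a separate biological sample, per the series' design text, but the sources used here do not say whether a deletion strain was 1 clone. The design asks whether paralogous ribosomal protein genes have different roles in the cell.

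Rpl12 (uL11 in the universal naming) sits at the base of the ribosomal stalk, next to the acidic P proteins, where translation factors dock on the large subunit. RPL12A on chromosome V and RPL12B on chromosome IV encode proteins of the same amino acid sequence. Amino acid shortage in yeast activates the kinase Gcn2, which raises translation of the transcription factor Gcn4, and Gcn4 then switches on genes of amino acid synthesis. Phosphate shortage activates the transcription factor Pho4, which switches on secreted acid phosphatases, phosphate transporters and the enzymes of polyphosphate storage.

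Median deposited signals of the 24 arrays lay between 36.3 and 61.4, with 59.0 and 38.5 in rpl12a and 47.6 and 52.3 in wild type. The background of an array, taken as the 95th percentile of the signals of 19 non-yeast control probe sets, lay between 5.55 and 30.82. Between 67.96% and 87.78% of probe sets exceeded it, 80.56% and 72.03% in rpl12a and 81.77% and 78.95% in wild type. The 2 rpl12a arrays correlated at 0.975 over all probe sets and the 2 wild-type arrays at 0.980, although rpl12a replicate 1 correlated at 0.975 with an rpl22a array too. The a-specific genes were strongly expressed, with the pheromone precursor gene MFA1 at 7516 and 7564 in rpl12a and at 5499 and 4455 in wild type after normalization. URA3 and MET17 were not above background on any of the 4 arrays. HIS3 was above background in both strains, at 349.6 and 267 in rpl12a and 188 and 194 in wild type. LEU2 was low but also above background on the 2 arrays of each strain, at 21.0 and 18.4 in rpl12a and 28.0 and 14.0 in wild type. Arrays were normalized to each other, so a change in the total RNA per cell could not be seen.

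The deleted gene was checked first, on deposited signals. Of the 3 probe sets that name both RPL12 copies, 5781_i_at read 2.1 and 0.9 in rpl12a, against 8553.3 and 9283.7 in wild type. Neither rpl12a array was above background, while every other array of the series read between 6397 and 9555. The signal was at least 595-fold lower in rpl12a (limma's adjusted p = 9.30e-17). Probe set 6069_i_at showed the mirror image, with 7237.5 and 5079.3 in rpl12a and 6831.9 and 7801.1 in wild type but only 1.1 and 4.4 in rpl12b. Its difference between rpl12a and wild type was -0.11 ± 0.15 on the log2 scale (SE, adjusted p = 0.962). The third, 6070_s_at, read 4351.3 and 3001.8 in rpl12a, against 4345.6 and 5291.1 in wild type. Its log2 difference of -0.26 ± 0.12 did not pass the test (adjusted p = 0.564). The 2 deletions were therefore each without signal in a different probe set of the pair, and the third read RNA in both.

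**Figure D1:**
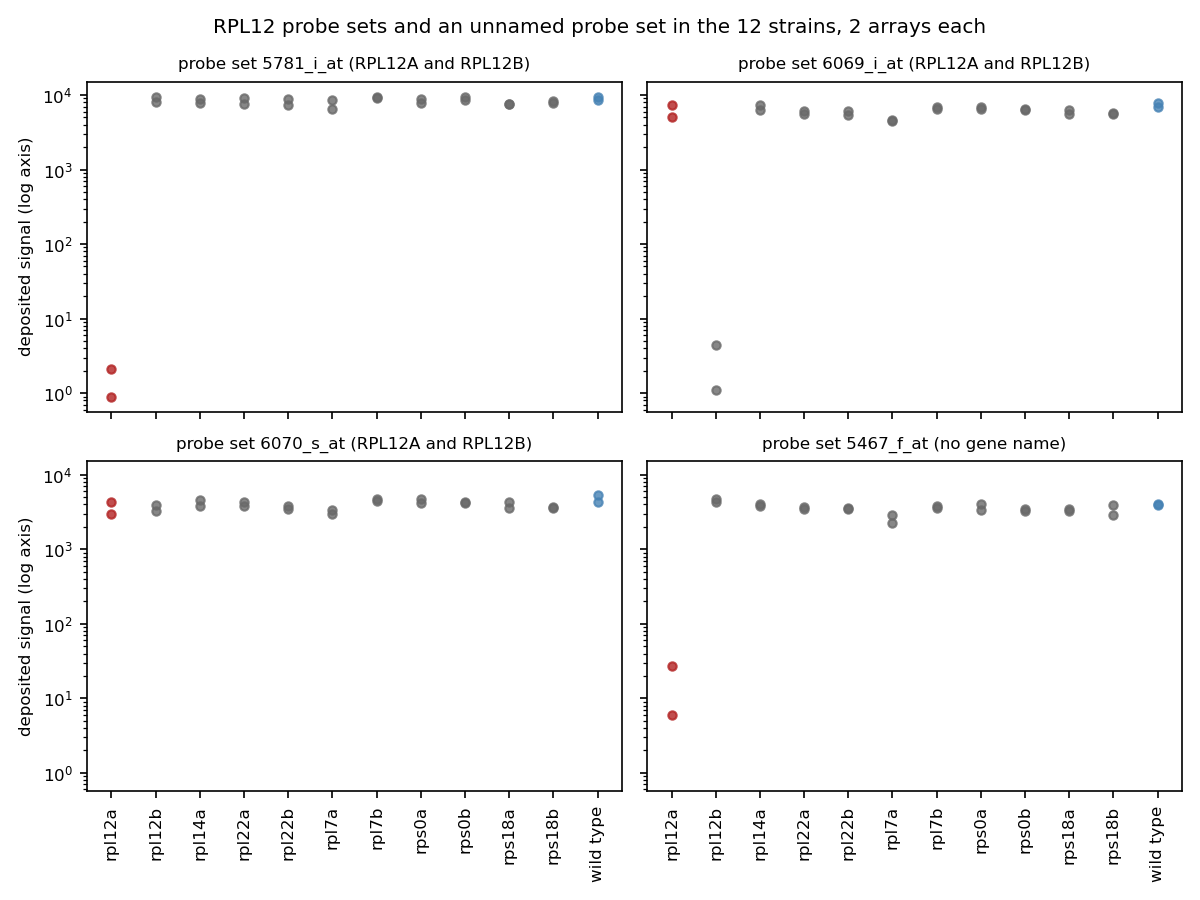
Deposited signal (log axis) of the 3 probe sets naming RPL12A and RPL12B and of the unnamed probe set 5467_f_at in the 12 strains, with 1 point per array, rpl12a in red, wild type in blue and the other deletions in grey. In 5781_i_at the 2 rpl12a arrays read 2.1 and 0.9, in 6069_i_at the 2 rpl12b arrays read 1.1 and 4.4, and 6070_s_at kept its signal in both deletions.

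Several probe sets without a gene name in the annotation used here also separated rpl12a from the other strains. Probe set 5467_f_at read 6 and 27.2 in rpl12a, against 3989.9 and 4116 in wild type, and no array of the remaining deletions read below 2249.8. Probe set 5465_f_at read 4.1 and 1.7 in rpl12a and 297.4 and 216.8 in wild type, which is at least 17.4-fold lower. Probe sets 5463_r_at and 5464_i_at were lower as well, 5463_r_at by at least 3.45-fold, and 5464_i_at fell by 2.58 on the log2 scale. The call of 5463_r_at was lost without rpl12a replicate 1 (adjusted p = 0.0698) and without wild-type replicate 2 (adjusted p = 0.0604). Each of these 4 was lower in rpl12a than on every array of the other 10 deletions. Probe set 3982_at went the other way and was high in every deletion, at 9578.8 and 7835.5 in rpl12a and 0.8 and 0.6 in wild type, at least 825-fold higher. It read between 6609.5 and 9412.8 in the 9 deletions other than rpl12a and rpl12b.

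Across the array, few transcripts passed the test. limma's test with Benjamini-Hochberg adjustment over 9275 probe sets called 27 of them at adjusted p under 0.05, or 0.291%, with 10 higher in rpl12a (0.108%) and 17 lower (0.183%). An unadjusted p under 0.05 was reached by 796. Of the 27, 15 carry 1 gene name and stand for 14 genes, 3 name several genes and 9 carry no name. In all 27 the 2 rpl12a arrays lay on the same side of both wild-type arrays. Over the 5656 genes that had their own probe set, 6 were called higher and 6 lower (0.106% each), and the median log2 difference was 0.00. Both rpl12a arrays lay above both wild-type arrays in 20.3% of genes and below both in 19.2%, which is the background for the counts of separated genes that follow. Of the 10 higher calls only 3982_at was also called without normalization between arrays, where the 16 calls were 1 higher and 15 lower. Signals are given after normalization from here on.

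**Figure D2:**
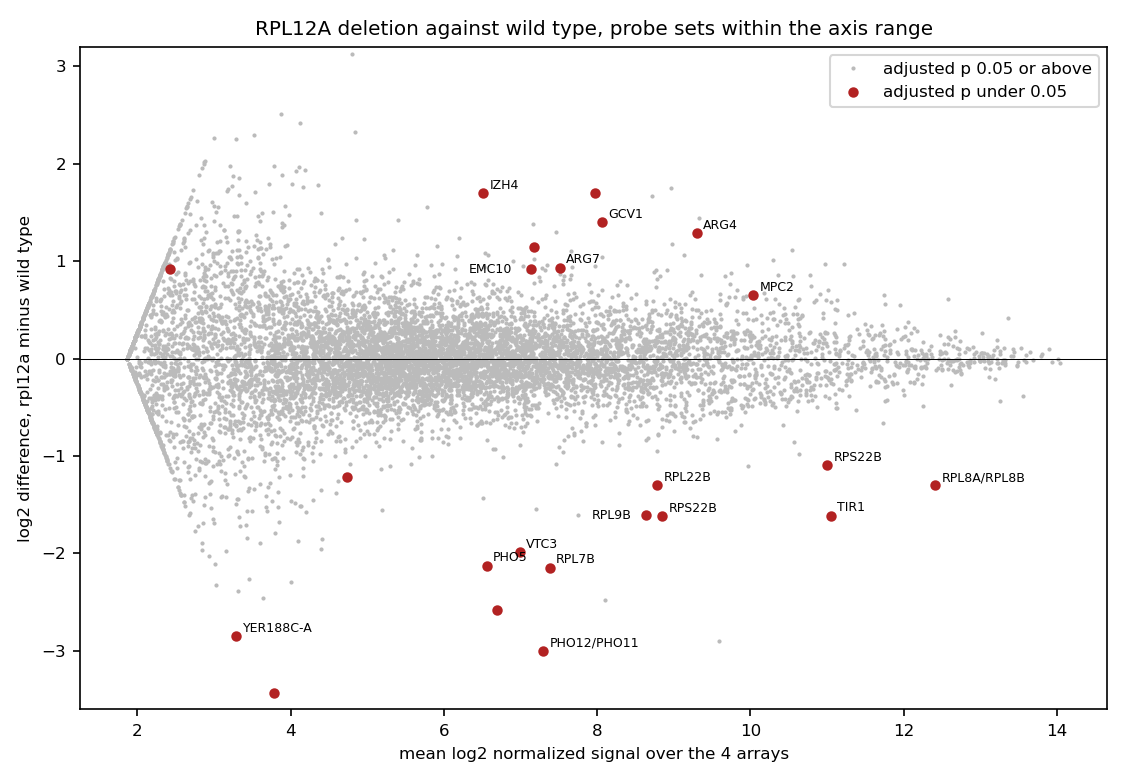
Log2 difference between rpl12a and wild type (vertical axis) against the mean log2 normalized signal of the 4 arrays (horizontal axis), with 1 point per probe set. Red points passed an adjusted p of 0.05, unlabelled ones have no gene name, and 4 called probe sets with larger differences lie outside the axis range. The labelled genes run from PHO12/PHO11 at -3.0 to IZH4 at 1.70.

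Arginine synthesis held 2 of the 6 genes called higher. ARG4, which encodes argininosuccinate lyase and makes arginine in the last step, had signals of 939 and 1029 in rpl12a, against 376 and 433 in wild type. Both rpl12a arrays lay above both wild-type arrays. The gene rose 2.44-fold, by 1.29 ± 0.13 on the log2 scale (SE, limma's adjusted p = 0.000188). ARG7, the mitochondrial ornithine acetyltransferase, had 287 and 222 in rpl12a and 130 and 134 in wild type. It rose 1.91-fold, by 0.93 ± 0.17 (adjusted p = 0.0323). ARG4 was called without any 1 of the 4 arrays, at 1.18 to 1.39. ARG7 was called only when rpl12a replicate 2 was the array left out (1.12, adjusted p = 0.0475), and its adjusted p was 0.231 without rpl12a replicate 1, 0.222 without wild-type replicate 1 and 0.137 without wild-type replicate 2. Without normalization ARG4 stood at 1.14 with an adjusted p of 0.0872.

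The other arginine genes did not pass the test. ARG1, argininosuccinate synthase, had 252 and 212 in rpl12a and 94.0 and 83.2 in wild type, a log2 difference of 1.38 ± 0.54 (adjusted p = 0.455) with no overlap of the arrays. CPA1, the small subunit of the arginine-specific carbamoyl phosphate synthetase, had 617 and 603 in rpl12a and 338 and 338 in wild type (0.85 ± 0.25, adjusted p = 0.240). ARG3, ARG8, ARG2 and the mitochondrial ornithine carrier gene ORT1 overlapped between the strains, with differences between -0.13 and 0.98. Over the 8 measured genes of the 10 in the list, 2 were called higher and 0 lower, 4 were separated upward and 0 downward, and the median difference was 0.89, beside 0.00 over all genes.

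**Figure D3:**
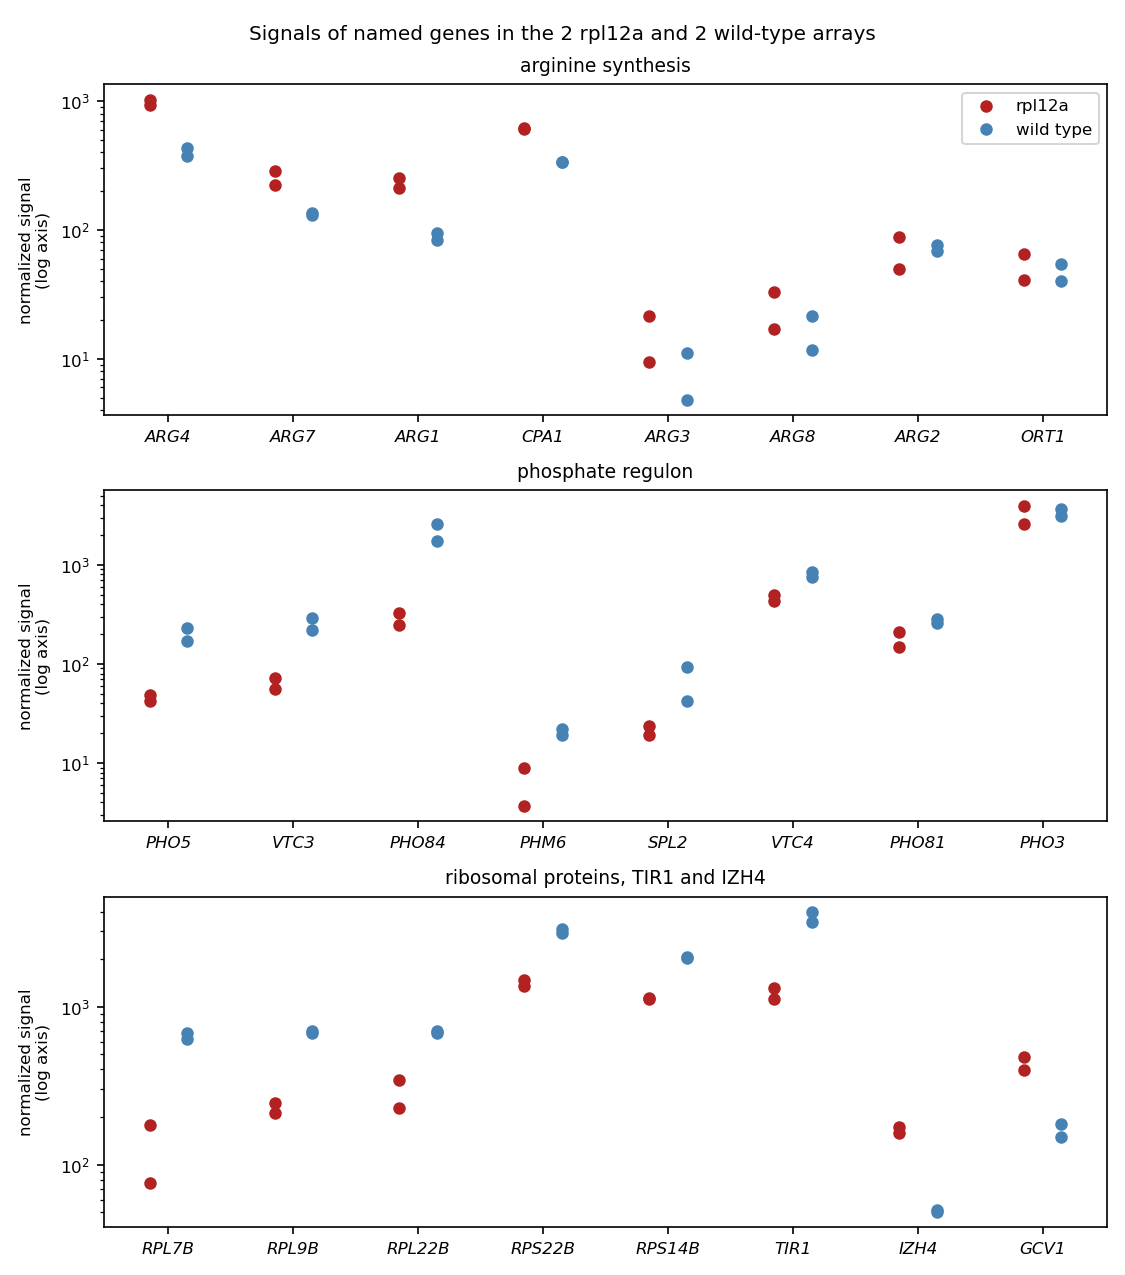
Normalized signal (log axis) of genes for arginine synthesis, of the phosphate regulon, and of ribosomal proteins with TIR1, IZH4 and GCV1, with 1 point per array, rpl12a in red on the left and wild type in blue on the right of each gene. RPS22B and RPL7B are drawn by their brightest probe set. ARG4 at 939 and 1029 in rpl12a lies above 376 and 433 in wild type, and PHO5 at 42.2 and 48.5 in rpl12a lies below 171 and 229 in wild type.

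GCN4 itself had 4286 and 4106 in rpl12a and 2783 and 2897 in wild type. The difference of 0.56 ± 0.12 missed the threshold (limma's adjusted p = 0.0802). PCL5, the cyclin that marks Gcn4 protein for degradation, had 242 and 256 in rpl12a and 148 and 137 in wild type (0.81 ± 0.18, adjusted p = 0.0822). In both genes the arrays did not overlap. GCN2, the kinase, had 41.2 and 47.1 in rpl12a and 59.5 and 56.1 in wild type (-0.39 ± 0.19, adjusted p = 0.615). The 14 genes of the list of Gcn4 regulators had 0 calls, 5 separated upward, 2 separated downward and a median of 0.21.

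Other amino acid pathways gave no call, and their separated genes were mostly on the upper side. LYS1, saccharopine dehydrogenase of lysine synthesis, came near the threshold, at 341 and 357 in rpl12a and 167 and 197 in wild type (0.95 ± 0.19, limma's adjusted p = 0.0553). In the branched-chain pathway 8 of 10 genes were separated upward, with a list median of 0.46. LEU1, isopropylmalate isomerase, had 2347 and 2233 in rpl12a and 1263 and 1476 in wild type (0.75 ± 0.17, adjusted p = 0.0977). The only gene of that list separated downward was BAT2, the cytosolic branched-chain aminotransferase, at 440 and 360 in rpl12a and 689 and 646 in wild type (-0.75 ± 0.15, adjusted p = 0.0553). Its mitochondrial counterpart BAT1 had 1854 and 1844 in rpl12a and 1260 and 1301 in wild type (0.53 ± 0.13, adjusted p = 0.167).

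In the aromatic pathway 6 of 13 genes were separated upward, among them TRP4 of tryptophan synthesis with a difference of 0.94 (limma's adjusted p = 0.129). In histidine synthesis 4 of 6 were separated upward, and HIS1, the first enzyme, had 2909 and 2386 in rpl12a and 1667 and 1570 in wild type (0.70 ± 0.19, adjusted p = 0.188). HOM2, aspartate semialdehyde dehydrogenase on the way to threonine and methionine, had 1417 and 1517 in rpl12a and 920 and 924 in wild type (0.67 ± 0.15, adjusted p = 0.0908). Sulfur amino acid genes were spread on both sides, with 3 of 20 separated upward, 4 downward and a median of -0.06. Over all 7 amino acid lists together, 85 genes were measured, 2 were called higher and 0 lower, 36 (42.4%) were separated upward and 8 (9.41%) downward, with a median of 0.15. Without normalization the medians of the branched-chain, aromatic and histidine lists were 0.31, 0.12 and 0.20, while the median over all genes was -0.08.

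Glycine cleavage, the mitochondrial breakdown of glycine into one-carbon units, held a further gene that rose. GCV1, the T subunit of the complex, had 478 and 395 in rpl12a and 182 and 149 in wild type, a rise of 1.40 ± 0.25 (limma's adjusted p = 0.0293). GCV3 and GCV2, the H and P subunits, differed by 0.97 ± 0.25 and 0.91 ± 0.25 and did not pass (adjusted p = 0.184 and 0.202), although the arrays of both were separated upward. DFR1, dihydrofolate reductase, had 72.4 and 67.8 in rpl12a and 136 and 90.5 in wild type (-0.66 ± 0.24, adjusted p = 0.409). Of the 12 genes in the one-carbon list, 4 were separated upward and 3 downward, with a median of -0.04. GCV1 lost its call without any 1 of the 4 arrays, with adjusted p between 0.0874 and 0.199.

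The remaining genes that rose have separate roles. IZH4, a membrane protein linked to zinc homeostasis, had 172 and 158 in rpl12a and 49.9 and 51.7 in wild type, a 3.25-fold rise (1.70 ± 0.25, limma's adjusted p = 0.00669). Its call was lost without rpl12a replicate 1 (1.64, adjusted p = 0.0666) and without wild-type replicate 1 (1.67, adjusted p = 0.0555). EMC10, a subunit of the endoplasmic reticulum membrane protein complex, had 218 and 172 in rpl12a and 111 and 94.6 in wild type (0.92 ± 0.17, adjusted p = 0.0323). MPC2, a subunit of the mitochondrial pyruvate carrier, had 1251 and 1386 in rpl12a and 832 and 840 in wild type (0.66 ± 0.12, adjusted p = 0.0419). EMC10 and MPC2 were not called without any 1 of the 4 arrays, at adjusted p of 0.0521 to 0.225 for EMC10 and 0.107 to 0.284 for MPC2. Relatives of IZH4 gave smaller differences, with IZH3 at 0.50 ± 0.15 (adjusted p = 0.277). The zinc regulator gene ZAP1 overlapped between the strains, although its difference was -3.01 without rpl12a replicate 1. Unnamed probe sets 10902_at and 5642_at rose by 1.70 ± 0.30 and 1.15 ± 0.14. The call of 10902_at was lost without any 1 of the 4 arrays (adjusted p of 0.0555 to 0.166), and 5642_at was called in all 4 of these fits. Probe set 6755_i_at was also called, but it was below background on all arrays, so no fold is given.

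In the phosphate regulon 2 of 18 measured genes were called lower, PHO5 and VTC3, and so was the probe set shared by PHO11 and PHO12. PHO5, the main secreted acid phosphatase, had 42.2 and 48.5 in rpl12a and 171 and 229 in wild type. Both rpl12a arrays were low and the strains did not overlap. PHO5 fell by 2.13 ± 0.35 on the log2 scale (limma's adjusted p = 0.0143). The shared probe set of the acid phosphatase genes PHO11 and PHO12 had 62.9 and 49.2 in rpl12a and 360 and 550 in wild type and fell by 3.0 ± 0.45 (adjusted p = 0.00807). VTC3, a subunit of the polyphosphate polymerase of the vacuole, had 56.3 and 72.3 in rpl12a and 220 and 292 in wild type and fell by 1.99 ± 0.34 (adjusted p = 0.0234).

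PHO84, the high-affinity phosphate transporter, showed a difference of -2.90 ± 1.12 that did not pass the test (limma's adjusted p = 0.444). It had 246 and 324 in rpl12a and 1723 and 2575 in wild type, with no overlap. PHM6 had 8.90 and 3.65 in rpl12a, not above background, and 19.0 and 21.9 in wild type (-1.84 ± 0.36, adjusted p = 0.0548). SPL2, which lowers low-affinity phosphate uptake, had 23.8 and 19.1 in rpl12a and 42.1 and 93.3 in wild type (-1.56 ± 0.63, adjusted p = 0.488). VTC4, the catalytic subunit for polyphosphate, had 433 and 491 in rpl12a and 758 and 845 in wild type (-0.80 ± 0.27, adjusted p = 0.360). The constitutive acid phosphatase gene PHO3 overlapped, at 2564 and 3963 in rpl12a and 3116 and 3622 in wild type.

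Of the 18 measured genes of the 20 in the phosphate list, 2 were called lower and 0 higher, 12 were separated downward and 1 upward, and the median was -0.55. Regulators of the pathway were counted separately. In the list of 8 genes for phosphate signalling and low-affinity transport, 0 were called, 2 were separated upward and 0 downward, with a median of 0.04. PHO4 had 73.8 and 65.1 in rpl12a and 77.6 and 71.5 in wild type (-0.10 ± 0.29, limma's adjusted p = 1). PHO5 and VTC3 lost their calls without any 1 of the 4 arrays, at adjusted p of 0.0524 to 0.129 for PHO5 and 0.0681 to 0.169 for VTC3. The probe set of PHO11 and PHO12 kept its call without rpl12a replicate 1 or wild-type replicate 1 and lost it without rpl12a replicate 2 (-2.82, adjusted p = 0.0894) and without wild-type replicate 2 (-2.70, adjusted p = 0.0812).

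Most ribosomal protein genes differed little, and a few single copies were lower. The 42 large-subunit genes that had their own probe set gave 2 calls, both lower, with 8 genes separated upward, 8 downward and a median of -0.02. The 33 small-subunit genes had 1 call, lower, with 3 separated upward, 8 downward and a median of -0.02. Without normalization these medians were -0.20 and -0.18, against -0.08 over all genes. RPL9B, 1 of 2 genes for protein L9, had 244 and 213 in rpl12a and 681 and 705 in wild type and fell by 1.60 ± 0.29 (limma's adjusted p = 0.0293). The probe set that names RPL9A and RPL9B together differed by -0.11 ± 0.22.

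RPL22B, a minor copy for protein L22, had 346 and 229 in rpl12a and 685 and 701 in wild type and fell by 1.30 ± 0.19 (limma's adjusted p = 0.00769). Its call held without rpl12a replicate 1 (-1.60) and was lost without rpl12a replicate 2 (-1.0, adjusted p = 0.0857), wild-type replicate 1 (-1.32, adjusted p = 0.0555) or wild-type replicate 2 (-1.28, adjusted p = 0.0560). RPS22B, a small-subunit copy, fell on 2 of its 3 probe sets. Probe set 9946_at had 260 and 267 in rpl12a and 790 and 829 in wild type (-1.62 ± 0.26, adjusted p = 0.0115), and 9947_i_at had 1347 and 1476 in rpl12a and 2918 and 3088 in wild type (-1.09 ± 0.19, adjusted p = 0.0234). The third, 9948_f_at, differed by -0.98 ± 0.20 (adjusted p = 0.0647). The RPL22B probe set had 3.65 and 3.65 in rpl22b, which lacks RPL22B and keeps its partner RPL22A. RPS22B differs from its partner at few positions, so cross-hybridization between these copies was not separated from expression.

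RPL7B, a copy for protein L7, was read by 2 probe sets that differed in outcome of the test. Probe set 7961_f_at had 85.2 and 74.1 in rpl12a and 330 and 375 in wild type and fell by 2.15 ± 0.33 (limma's adjusted p = 0.00849). The brighter 7960_i_at had 76.4 and 179 in rpl12a and 679 and 628 in wild type, and its difference of -2.48 ± 0.57 missed the threshold (adjusted p = 0.0997). A probe set naming RPL8A and RPL8B, 4575_i_at, had 3664 and 3309 in rpl12a and 8666 and 8514 in wild type. It fell by 1.30 ± 0.13 (adjusted p = 0.000188), and it was called without any 1 of the 4 arrays. The 2 other probe sets of that pair differed by -0.01 ± 0.12 and -0.23 ± 0.10. RPS14B, another small-subunit copy, had 1127 and 1124 in rpl12a and 2048 and 2037 in wild type (-0.86 ± 0.19, adjusted p = 0.0926). RPL9B, RPS22B and RPL7B were each not called without any 1 of the 4 arrays, with adjusted p of 0.0535 to 0.205 over these 4 probe sets.

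The proteins next to Rpl12 in the ribosome showed no change that passed the test. RPP0, the stalk base protein P0, had 10250 and 9908 in rpl12a and 10380 and 10380 in wild type (-0.04 ± 0.09, limma's adjusted p = 0.998). The acidic stalk protein genes RPP1A, RPP1B, RPP2A and RPP2B differed by 0.05 to 0.15. RMT2 and RKM2, the methyltransferases that modify Rpl12, differed by 0.22 ± 0.30 and -0.21 ± 0.33. MRT4 and YVH1, which act when the stalk is assembled, differed by 0.36 ± 0.22 and 0.32 ± 0.26. The 10 genes of this list had 0 calls and a median of 0.13, which was -0.04 without normalization.

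TIR1, a cell wall mannoprotein induced by cold and by lack of oxygen, had 1118 and 1318 in rpl12a and 3998 and 3445 in wild type. It fell by 1.61 ± 0.28 (limma's adjusted p = 0.0242), and leaving out any 1 of the 4 arrays took away the call (adjusted p of 0.0812 to 0.215). ANB1, the form of translation factor eIF5A made without oxygen, had 113 and 136 in rpl12a and 398 and 356 in wild type (-1.60 ± 0.32, adjusted p = 0.0580). HEM13, an enzyme of heme synthesis that is raised when oxygen is low, differed by -0.75 ± 0.22 (adjusted p = 0.258). In the list of 12 measured anaerobic and wall genes, 1 was called lower, 7 were separated downward and 1 upward, and the median was -0.22. The close relatives TIR2, TIR3 and TIR4 had differences between -0.29 and -0.11. YER188C-A was called lower on 11265_i_at alone, at 3.64 and 3.65 in rpl12a and 27.5 and 25.2 in wild type. That was at least 2.01-fold lower, while its other 2 probe sets differed by 0.10 and 0.29. It lost its call without any 1 of the 4 arrays (adjusted p of 0.0559 to 0.0857). Unnamed probe set 11274_at, at 15.5 and 19.5 in rpl12a and 39.0 and 42.1 in wild type, fell by 1.22 ± 0.18 (adjusted p = 0.00669) and lost its call without rpl12a replicate 1 (-1.06, adjusted p = 0.0852) and without wild-type replicate 2 (-1.17, adjusted p = 0.0575).

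Among the other lists, no gene was called. Genes of oxidative phosphorylation were separated upward in 16 of 38 cases (42.1%) and downward in 1, with a median of 0.24. NDE1, the external mitochondrial NADH dehydrogenase, had 1639 and 1964 in rpl12a and 932 and 846 in wild type (1.01 ± 0.29, limma's adjusted p = 0.222). The proteasome had 13 of 34 genes separated upward, 2 downward and a median of 0.15. Large-subunit assembly factors had 13 of 56 separated upward (23.2%), near the 20.3% over all genes. In the same list 1 was separated downward (1.79%, beside 19.2% over all genes), and the median was 0.18. TIF6, the factor that keeps pre-60S particles from joining the small subunit, had 1197 and 1140 in rpl12a and 652 and 616 in wild type (0.88 ± 0.17, adjusted p = 0.0553).

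On the lower side, 7 of 13 purine synthesis genes were separated downward and 0 upward, with a median of -0.13. ADE17, which carries out the last steps to IMP, had 604 and 336 in rpl12a and 771 and 653 in wild type (-0.65 ± 0.25, limma's adjusted p = 0.429). Of 27 genes of the pheromone response, 12 were separated downward and 5 upward, with a median of -0.20. AGA1, the anchor of the mating agglutinin, had 434 and 528 in rpl12a and 858 and 822 in wild type (-0.81 ± 0.27, adjusted p = 0.315), and the fusion gene FIG1 was below background in rpl12a. Heat shock chaperones were separated downward in 8 of 23 cases and upward in 2, with a median of -0.18. The iron regulon went both ways, with ISU2 at 1.17 ± 0.30 and FIT3 at -1.11 ± 0.32 (adjusted p = 0.165 and 0.231), a median of -0.05, and 7 genes separated upward and 8 downward.

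**Figure D4:**
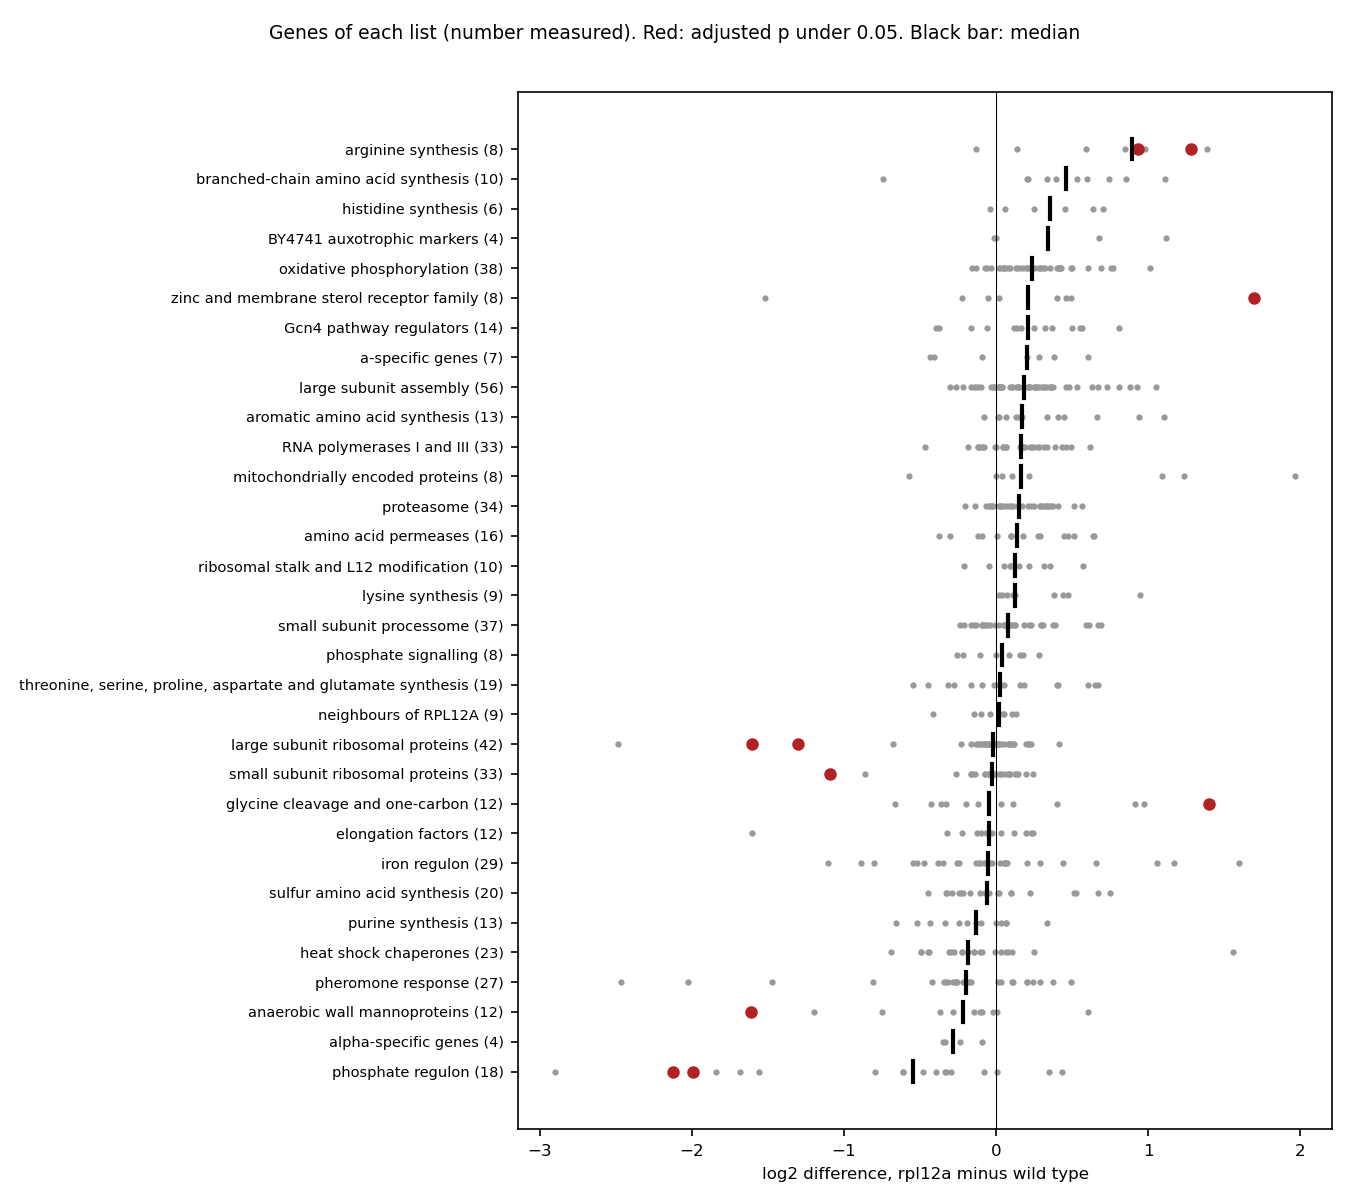
Log2 difference between rpl12a and wild type (horizontal axis) of the measured genes of 32 lists, ordered by the list median (black bar), with the number of genes measured beside each name and 1 point per gene. Red points passed an adjusted p of 0.05. Arginine synthesis lies at the top with a median of 0.89 and the phosphate regulon at the bottom with -0.55.

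No chromosome stood apart in rpl12a. The mean log2 difference of the genes on each of the 16 nuclear chromosomes lay between -0.05 and 0.06, and limma called 0 of 16 (0 also at an unadjusted p under 0.05). Chromosome V, home of RPL12A, was at 0.06 and chromosome IV, home of RPL12B, at 0.01. The 9 measured neighbours of RPL12A had 0 calls and a median of 0.02, with differences from -0.42 for MAK10 to 0.13 for SDD1, which was not above background in either strain.

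Against the mean of the other 10 deletions, where no wild-type array enters, limma called 31 probe sets (0.334%), 18 higher (0.194%) and 13 lower (0.14%) in rpl12a. That mean includes rpl12b, in which chromosome V was higher than in rpl12a. Of the 27 probe sets called against wild type, 11 were called here too, all in the same direction. ARG4 stood 1.03 ± 0.10 above the mean of the other deletions (adjusted p = 8.96e-05), ARG7 0.91 ± 0.13 (adjusted p = 0.00539) and IZH4 0.95 ± 0.18 (adjusted p = 0.0464). The spread in this test is that between replicate arrays, not between strains. Each of these genes had rank 3 from the highest among the 11 deletions. IZH4 had 212 and 234 in rpl14a and 190 and 225 in rpl22a, above 172 and 158 in rpl12a. Of the 31, 7 name genes that are deleted in another strain of the series, among them RPS0A, RPS0B, RPL7A, RPL14A and RPL22A. When all probe sets of such genes were left out and p-values adjusted again, 16 of the other 24 were still called, 5 higher and 11 lower. The 8 that were not, 7 higher and 1 lower, included IZH4 (adjusted p = 0.0584), while ARG4 and ARG7 were still called (adjusted p = 0.000113 and 0.00694). PHO5 and VTC3 did not pass this test, at -0.84 ± 0.26 (adjusted p = 0.326) and -1.01 ± 0.26 (adjusted p = 0.171). Neither did RPL9B, RPS22B, TIR1 or GCV1. RPL22B, at -0.09 ± 0.14, did not pass either, but the mean includes rpl22b, which lacks this gene (3.65 and 3.65). It also includes rpl22a, where RPL22B had 2107 and 1765. For RPL22B this test therefore could not show whether rpl12a differed from the remaining deletions. Leaving rpl7a, rpl12b and rpl14a out of the mean of the other deletions gave 42 calls, 20 higher and 22 lower in rpl12a.

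The levels in each strain were then set side by side, with wild type shared by all comparisons. ARG4 was highest in rpl22a at 1644 and 1554, next in rpl14a at 1533 and 1270, then in rpl12a at 939 and 1029, with no overlap between rpl12a and rpl14a. All other deletions lay between 277 and 499.5 and wild type at 376 and 433. ARG7 was above both wild-type arrays in the same 3 deletions, at 502 and 507 in rpl22a, 286 and 301 in rpl14a and 287 and 222 in rpl12a, where rpl14a and rpl12a overlap, while 7 deletions lay below both wild-type arrays. ARG1 was above both wild-type arrays in rpl12a, rpl14a and rpl22a too, with 425 and 425 in rpl22a and 276 and 205 in rpl14a. Other genes of this group were spread more widely. CPA1 was above both wild-type arrays in 11 of 11 deletions. GCN4 was above both in 10 of 11, with its highest level in rpl12b at 5566 and 5837. PCL5 was above both in 6 of 11 and was higher in rpl14a, at 625 and 550, and in rpl22a, at 537 and 389, than in rpl12a, at 242 and 256.

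Other called genes were spread differently over the strains. PHO5 was below both wild-type arrays in 8 of the 11 deletions and above both in 1, rpl14a, at 392 and 628. VTC3 was likewise below wild type in 8 and above it in rpl14a. GCV1 was above both wild-type arrays in 10 of 11 deletions, and RPL9B below both in 11 of 11. RPS22B (9946_at) was below both in 8 of 11, with 260 and 267 in rpl12a, 125 to 196 in the 4 deletions of small-subunit genes and 196 and 375 in rpl22a. EMC10 was above both wild-type arrays in 7 of 11. Its highest mean among the 11 deletions was in rpl12a, at 218 and 172, which overlapped rpl14a at 187 and 172.5. Against the mean of the other 10 deletions EMC10 did not pass (0.62 ± 0.12, limma's adjusted p = 0.0579).

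**Figure D5:**
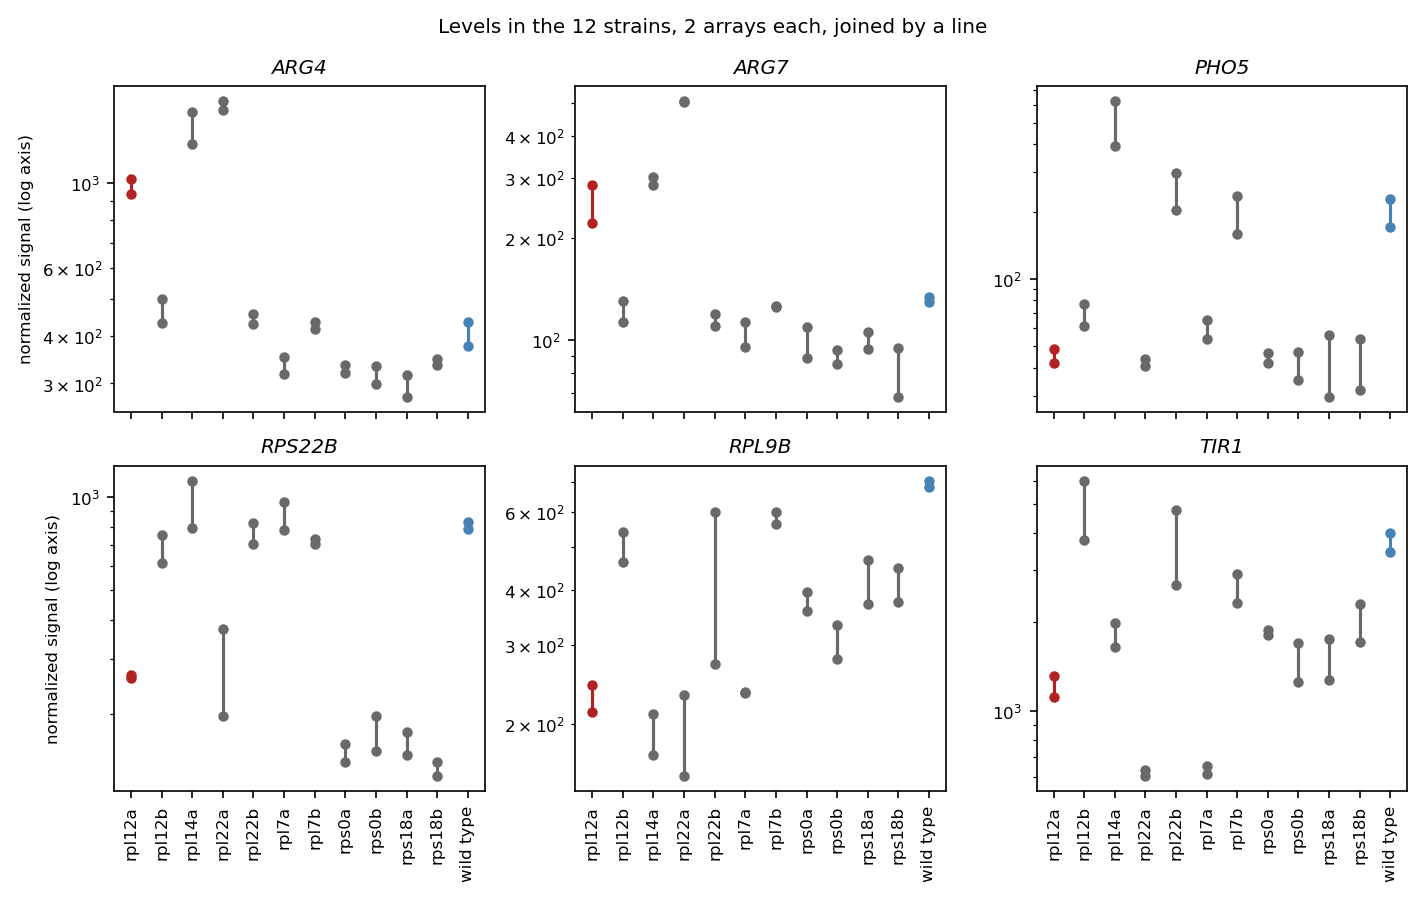
Normalized signal (log axis) of ARG4, ARG7, PHO5, RPS22B (9946_at), RPL9B and TIR1 in the 12 strains, with 2 arrays per strain joined by a line, rpl12a in red, wild type in blue and the other deletions in grey. ARG4 and ARG7 are above wild type in rpl12a, rpl14a and rpl22a, and RPL9B is below wild type in every deletion.

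The paralog deletion gave a direct comparison. Between rpl12a and rpl12b limma called 153 probe sets (1.65%), 51 higher (0.55%) and 102 lower (1.1%) in rpl12a. Of the 102 lower ones, 76 lie on chromosome V. Its mean differed by -0.82 ± 0.06 on the log2 scale, rpl12a minus rpl12b (limma's adjusted p = 3.88e-13 over the 16 chromosomes). Against wild type the chromosome V mean of rpl12a differed by only 0.06 ± 0.06, so rpl12b was the strain that departed from wild type there. Leaving out 1 array at a time gave 38 calls without rpl12a replicate 2, 73 without rpl12a replicate 1, 68 without rpl12b replicate 2 and 180 without rpl12b replicate 1. In that last fit the balance turned, with 105 higher and 75 lower in rpl12a. ARG4 had 939 and 1029 in rpl12a, against 431 and 499.5 in rpl12b, a difference of 1.08 ± 0.13 (adjusted p = 0.000965). ARG7 had 287 and 222 in rpl12a, against 113 and 130 in rpl12b (1.06 ± 0.17, adjusted p = 0.00724). ARG1 had 252 and 212 in rpl12a and 70.5 and 80.3 in rpl12b, with a difference of 1.62 that did not pass (adjusted p = 0.190).

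RPS22B (9946_at) differed too, at 260 and 267 in rpl12a and 612 and 755 in rpl12b (-1.37 ± 0.26, limma's adjusted p = 0.0145). PHO5 had 42.2 and 48.5 in rpl12a and 61.7 and 77.0 in rpl12b, a difference of -0.61 ± 0.35 that did not pass (adjusted p = 0.563). GCV1 had 478 and 395 in rpl12a and 582 and 430 in rpl12b (-0.20 ± 0.25, adjusted p = 0.866). IZH4 had 172 and 158 in rpl12a and 138 and 125 in rpl12b (0.33 ± 0.25, adjusted p = 0.702). For these last 3 genes a difference between the paralog deletions was not detectable with 2 arrays each.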

How the data were processed

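The authors deposited linear intensities, 1 value for each probe set of each Affymetrix YG-S98 array. Per the labels' protocols, hot phenol served for extraction, and cDNA primed with oligo-dT was the template for the biotin-labelled cRNA. The probe summary and any scaling between arrays are not given in the sources used here. Intensities under 3.6, the 10th percentile of all deposited values (9.89% of values), were raised to it, and log2 values were quantile normalized over the 24 arrays. Names came from the platform annotation, updated through the R64 reference (6504 probe sets with 1 name, 328 with several, 2443 with none), and a gene with several probe sets was taken by the brightest. limma 3.58.1 in R 4.3.3, with version 1.17.8 of data.table, fitted 12 strain means with 2 arrays each. Unless stated otherwise, an adjusted p is from limma's two-sided test with Benjamini-Hochberg adjustment over all 9275 probe sets. Errors are SEs of the log2 difference, and the spread is pooled over strains.

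A probe set with no array above background in a strain gives a bound. There the mean of the brighter strain was set against, per array, the higher of the lowest signal above background and the signal itself. A list is described by its calls, its median, and how many genes had non-overlapping arrays.

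Members, lists and comparisons were chosen with earlier results of these data known. Named genes were all RPL12 probe sets, up to 15 called genes in each direction, all members of the RPL12A neighbour, stalk, Gcn4 regulator, arginine and phosphate lists, and up to 4 members of each other list with the largest test statistics. TIR2, TIR3 and TIR4, and the deleted genes RPS0A, RPS0B, RPL7A, RPL14A and RPL22A, were named after their values were seen. Replicate numbers were not used as pairs in the main fit. The correlation of deviations was 0.0859 between rpl12a and wild type, and over 0.1 in 19 of 66 pairs of strains. Its median over the 66 pairs was 0.0637, with a range of -0.0148 to 0.1906. Whether replicates of the same number shared a batch was not tested. The steps were tested on simulated data. Alternatives were other normalizations, floors, filters and limma options, the replicate block and leaving out arrays. Promoter motifs were not analysed here.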

Additional observations from a re-analysis of the deposited data

Results flagged for a closer look

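Of 186 probe sets of the named genes, the called set and the RPL12 pair, 22 differed between rpl12a and rpl12b in limma's test of that difference (adjusted p under 0.05 over 9275 probe sets). The values here are log2 differences, rpl12a minus rpl12b. They include the probe sets by which the deletions are told apart, RPL12 5781_i_at at -11.28 and RPL12 6069_i_at at 10.38. The 4 unnamed probe sets lower in rpl12a than in every other strain were at -8.50 (5467_f_at), -5.84 (5465_f_at), -4.20 (5463_r_at) and -3.07 (5464_i_at). Unnamed 6755_i_at, below background on all arrays, was at 0.85.

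Genes of amino acid synthesis were on the upper side, with ARG4 at 1.08, ARG7 at 1.06, LYS1 at 0.83 and ILV3, dihydroxyacid dehydratase of the branched-chain pathway, at 0.78. The mating pheromone genes MFA1 and MFA2 were at 1.47 and 0.91. Against wild type MFA1 was at 0.61 in rpl12a and -0.86 in rpl12b, and MFA2 at 0.29 in rpl12a and -0.63 in rpl12b. VHT1, the biotin transporter, was at 1.30, the zinc transporter gene ZRT2 at 0.91 and TIF6 at 0.80.

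On the lower side were RPS22B (9946_at) at -1.37 and the RPL8A and RPL8B probe set 4575_i_at at -0.96. The other 4 lie on chromosome V, whose mean was at -0.82: TIR1 at -1.97, PCM1 of chitin precursor synthesis at -1.08, RML2 of the mitochondrial ribosome at -1.08 and VTC1 at -0.86. PCM1 and RML2, neighbours of RPL12A, were at 0.11 and 0.05 in rpl12a against wild type and at 1.18 and 1.13 in rpl12b against wild type. The part of the chromosome V level in these 4 was not tested.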

How the results depend on the processing

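The 27 calls between rpl12a and wild type became 16 without normalization, 44 with limma's trend and robust options, 2 with the 4 arrays alone, 14 over probe sets with 1 gene name, and 17 to 27 when 1 array was left out. The higher and lower calls were 10 and 17, 6 and 20 after median centring and 19 and 18 with a floor at the 25th percentile. In no alternative did a called probe set change sign. Of the 27, 8 were called whichever of the 4 arrays was left out, and 12 in none of these 4 fits. The replicate block gave 56 calls, the 27 among them, but whether the numbers pair the samples was not settled. Against the other 10 deletions, 31 calls became 11 without normalization, 19 after median centring, 16 with log2(value + 1), 48 with the replicate block, 16 without probe sets of genes deleted elsewhere (added after seeing the data), and 15 to 32 with 1 rpl12a array left out. Against rpl12b, 153 calls became 24 without normalization, 91 after median centring, 1 with the 4 arrays alone, 304 with the replicate block, and 38 to 180 with 1 array left out. Chromosome calls were 0 in each alternative run. With 2 arrays a strain, genes near background, such as PHM6, and those with unequal replicates, such as PHO84, could be called only at large differences.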

Other observations

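Some gene lists not described above held no called gene. Of 16 amino acid permease genes, 8 were separated upward and 2 downward, with a median log2 difference of 0.14. BAP2, a branched-chain amino acid permease, had 1266 and 1195 in rpl12a and 772 and 800.1 in wild type (0.65 ± 0.16, limma's adjusted p = 0.145). LYP1, the lysine permease, had 1231 and 1152 in rpl12a and 724 and 813 in wild type (0.64 ± 0.16, adjusted p = 0.158). Genes for RNA polymerases I and III were separated upward in 9 of 33 cases and downward in 1. Their median was 0.17, and 0.00 on unnormalized arrays. RPA14, a subunit of polymerase I, had 833 and 704 in rpl12a and 526 and 474 in wild type (0.62 ± 0.16, adjusted p = 0.181). The small subunit processome, which assembles the precursor of the small ribosomal subunit, had 8 of 37 genes separated upward (21.6%) and 0 downward. Over all genes these shares were 20.3% and 19.2%. The processome median was 0.08, and -0.02 on unnormalized arrays. Elongation factors had 2 of 12 genes separated upward, 4 downward and a median of -0.05.

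Of the 7 a-specific genes 3 were separated upward and 2 downward, with a median of 0.20. The 4 alpha-specific genes, which are active in cells of mating type alpha, had differences between -0.35 and -0.09. Of the 8 mitochondrially encoded genes, whose capture by oligo-dT priming was not tested, 3 were separated upward and 1 downward. They differed widely in signal: OLI1, a subunit of the ATP synthase, averaged 3502 in rpl12a and 3401 in wild type, while ATP6, COX2, VAR1 and ATP8 were not above background on any of the 4 arrays. COX3, a subunit of cytochrome oxidase, had 27.0 and 43.2 in rpl12a and 3.65 and 20.9 in wild type (1.97 ± 0.61, limma's adjusted p = 0.279). Its wild-type arrays were far apart, and the difference was 0.71 without wild-type replicate 1 and 3.23 without wild-type replicate 2 (adjusted p = 1 and 0.00824).

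Against the other 10 deletions, some genes passed the test that did not pass it against wild type, and the 3 given here were chosen after their values were seen. GLC3, the glycogen branching enzyme, had 60.6 and 79.5 in rpl12a and 24.4 and 27.5 in wild type. It stood 1.27 ± 0.24 above the mean of the other deletions (limma's adjusted p = 0.0443), with an adjusted p of 0.0581 when probe sets of genes deleted in other strains were left out, and at 1.43 ± 0.32 against wild type (adjusted p = 0.0997). Against rpl12b it was at -0.06. RED1, a protein of the meiotic chromosome axis, had 13.7 and 20.8 in rpl12a and 36.8 and 30.8 in wild type. It stood at -1.05 ± 0.20 against the other deletions (adjusted p = 0.0464, and 0.0584 with those probe sets left out) and at -1.0 ± 0.27 against wild type (adjusted p = 0.198). SNR6, the U6 spliceosomal RNA, had 12.9 and 14.8 in rpl12a and 24.4 and 26.7 in wild type. It was above background on 1 of the 2 rpl12a arrays, and its capture by oligo-dT priming was not tested. It stood at -1.59 ± 0.27 against the other deletions (adjusted p = 0.0235, and 0.0323 with those probe sets left out) and at -0.89 ± 0.37 against wild type (adjusted p = 0.506).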
